A study of Mus musculus with 24 samples.

Results

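Mouse islets can respond to a high-fat diet by adding beta cells, and the 49 genes described here are the cell cycle genes whose transcripts mark cells that copy their DNA or divide. They were taken by name from the array's gene names and were divided by their known roles into 17 genes of S phase and 32 genes of mitosis. Of the 34797 gene names on the array these 49 had 67 probes, and 42 of them (15 of S phase and 27 of mitosis) passed the filter on dim probes that left 22967 genes in all. Islet RNA came from 24 male mice, 1 array per mouse, in 6 groups of 4. The mice were of 2 inbred strains, C57BL6/J, written BL6 below, and C57BLKs/J, written BLKS. From 8 weeks of age they ate normal chow (fat as 18% of kcal), a diet rich in fat (HFD, 42% of kcal), or the HFD supplemented with 140 mg per kg of pioglitazone, a drug that activates PPAR-gamma. Feeding lasted 12 weeks according to the samples' own labels and 16 according to the series' design text. The labels name no transgene, deletion or cell sort, and each sample is the RNA of a whole islet preparation.

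A cell enters S phase when cyclin E and its kinase release E2F transcription factors, which switch on the genes for the MCM helicase, the PCNA clamp and the enzymes of nucleotide supply. Mitosis genes come on later, under FOXM1 and the MYB-MuvB complex, and encode cyclin B and CDK1, the Aurora and Polo kinases, the spindle motors, the kinetochore and the anaphase machinery. Adult beta cells divide rarely, whereas immune cells that enter or adhere to islets can divide often. Levels are given as the log2 of the processed intensity minus the 75th percentile of the same array, and since probes differ in brightness only differences within a probe were compared. All 11 beta-cell markers were well above background on every array, so the label of islets held. Of 19 acinar markers 9 to 19 were too, so the preparations were not free of acinar RNA.

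Promoters were examined because the S phase and the mitosis genes are known to be switched on through different elements. RefSeq promoters (GRCm38.p6, 250 bases before to 50 after the start) were matched for 41 of the 49 genes. Both strands were searched for an E2F element written as TTTCCCGC, TTTGGCGC, TTTCGCGC or TTTGCCGC, for the cell cycle homology region (CHR) written as TTTGAA or TTCGAA, and for CCAAT. No motif contains another in either orientation, though matches may overlap at their ends. The E2F letters were present in 6 of 15 S phase promoters (40%), in 1 of 26 mitosis promoters (3.85%) and in 2.6% of the promoters of 27025 genes. The CHR letters were present in 20 of 26 mitosis promoters (76.9%), in 4 of 15 S phase promoters (26.7%) and in 21.7% of all promoters. CCAAT was present in 22 of 26 mitosis promoters (84.6%), in 10 of 15 S phase promoters (66.7%) and in 41.1% of all promoters. With a window that started 150 bases before the start, the CHR letters were found in 76.9% of mitosis promoters against 13.7% of all promoters. The promoters below belong to the 3 S phase and 3 mitosis genes of smallest unadjusted p for HFD against chow in BL6 among a fixed list of well-known members, so Aurka and Ube2c, which had smaller p-values than Cdc20 and Plk1, are not shown. They are written 5′ to 3′ in the gene's direction with motif matches in capitals. They lie at chr7:38107441-38107740 on the minus strand for Ccne1, chr2:154569377-154569676 on the minus strand for E2f1, chr12:24708004-24708303 on the plus strand for Rrm2, chr7:80294201-80294500 on the plus strand for Prc1, chr4:118437294-118437593 on the minus strand for Cdc20 and chr7:122159185-122159484 on the plus strand for Plk1.
Ccne1: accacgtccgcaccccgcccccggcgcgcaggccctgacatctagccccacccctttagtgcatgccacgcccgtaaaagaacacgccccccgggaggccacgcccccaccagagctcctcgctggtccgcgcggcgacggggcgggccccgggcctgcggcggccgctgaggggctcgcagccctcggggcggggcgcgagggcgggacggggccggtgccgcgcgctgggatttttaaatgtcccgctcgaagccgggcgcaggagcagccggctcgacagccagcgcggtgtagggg
E2f1: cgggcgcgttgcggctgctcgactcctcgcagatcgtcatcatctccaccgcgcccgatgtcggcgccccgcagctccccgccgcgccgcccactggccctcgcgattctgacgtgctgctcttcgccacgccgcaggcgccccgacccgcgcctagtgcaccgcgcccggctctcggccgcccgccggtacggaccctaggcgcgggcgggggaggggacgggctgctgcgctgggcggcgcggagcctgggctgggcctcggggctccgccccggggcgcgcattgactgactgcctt
Rrm2: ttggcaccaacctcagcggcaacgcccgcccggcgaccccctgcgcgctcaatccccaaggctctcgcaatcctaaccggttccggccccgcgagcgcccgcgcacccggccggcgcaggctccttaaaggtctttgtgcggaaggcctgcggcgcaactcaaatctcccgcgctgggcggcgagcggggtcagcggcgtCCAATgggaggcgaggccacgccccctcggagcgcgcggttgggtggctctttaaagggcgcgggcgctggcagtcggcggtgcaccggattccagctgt
Prc1: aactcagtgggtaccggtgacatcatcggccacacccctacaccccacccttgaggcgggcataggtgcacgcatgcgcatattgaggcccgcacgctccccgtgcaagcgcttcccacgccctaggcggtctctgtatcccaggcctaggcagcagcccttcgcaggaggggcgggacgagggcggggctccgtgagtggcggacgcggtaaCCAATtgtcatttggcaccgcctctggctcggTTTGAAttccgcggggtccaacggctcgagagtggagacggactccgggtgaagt
Cdc20: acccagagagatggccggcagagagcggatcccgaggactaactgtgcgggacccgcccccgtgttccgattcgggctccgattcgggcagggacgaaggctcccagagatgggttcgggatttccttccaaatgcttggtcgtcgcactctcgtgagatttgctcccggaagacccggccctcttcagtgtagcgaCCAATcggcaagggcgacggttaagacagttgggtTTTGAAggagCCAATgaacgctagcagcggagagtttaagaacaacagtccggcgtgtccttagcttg
Plk1: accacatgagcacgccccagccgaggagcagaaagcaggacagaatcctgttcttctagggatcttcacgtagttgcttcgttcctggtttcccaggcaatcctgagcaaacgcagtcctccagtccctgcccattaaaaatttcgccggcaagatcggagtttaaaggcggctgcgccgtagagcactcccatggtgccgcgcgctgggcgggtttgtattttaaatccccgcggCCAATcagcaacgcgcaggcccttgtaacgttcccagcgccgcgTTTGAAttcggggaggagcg
Prc1, Cdc20 and Plk1 each held 1 CHR match with 1, 2 and 1 CCAAT matches. Rrm2 held 1 CCAAT match, and none of the searched letters were found in the Ccne1 and E2f1 windows. The windows follow the annotated starts, and bases outside them were not searched. A motif near another start of E2f1 or Ccne1 would be missed, also in the shares above. The printed E2f1 window reads over much of its length as coding sequence of E2F1, so it lies inside the gene. Its lack of E2F letters therefore says nothing of the sequence upstream of the gene, though it is counted among the 15 S phase promoters.

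The mitosis genes were less often detected and varied more between mice than the S phase genes. Of the 17 S phase genes, 13 were well above background on all 24 arrays, and of the 32 mitosis genes 14 were. Probes of 7 genes were left out as dim: cyclin E2 (Ccne2), the Aurora B kinase (Aurkb), the checkpoint kinase Ttk and the kinetochore gene Cenpf were above background on 0 arrays, the centromere motor gene Kif2c on 1 by one probe and 3 by the other, the licensing factor Cdc6 on 2 and 1, and the spindle motor gene Kif11 on 3. Across the 24 arrays the relative level of a kept mitosis gene spanned a median range of 4.93 log2 units, against 2.04 for S phase genes and 1.23 for all genes. Within groups the median SD was 1.08, 0.43 and 0.21 in the same order. A single mouse, BL6 HFD with pioglitazone mouse 3, gave the highest value of 25 of 27 mitosis and 10 of 15 S phase genes.

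That mouse also had the highest lymphocyte marker score. The score of a list is the mean of its genes' relative levels on an array, given here minus its median over the 24 arrays. BL6 HFD with pioglitazone mouse 3 stood 5.96 above the lymphocyte median, with 3.16 for mitosis and 1.77 for S phase. BLKS HFD mouse 3 stood at 4.72, 2.02 and 1.25, and BL6 HFD mouse 4 at 4.76, 1.76 and 0.73. Counting these, 8 arrays had a lymphocyte score more than 1 above the median, at least 1 in every group: BL6 chow 3, BL6 HFD 4, BL6 HFD with pioglitazone 2 and 3, BLKS chow 2 and 4, BLKS HFD 3 and BLKS HFD with pioglitazone 1. On them 17 to 22 of 22 lymphocyte markers were well above background, against 6 to 14 on the other 16 arrays. On those 16 the B cell marker Ms4a1 was well above background on 1 array, of BLKS HFD, and the T cell marker Cd3g on 0, whereas Cd79a, Cd3e and Lck were on all of them. Acinar scores also varied widely, from -7.77 in a BLKS chow mouse to 2.33 in a BLKS HFD mouse. In these bulk samples fewer cells of a type and less RNA per cell cannot be told apart. Results are therefore given for all mice and without those 8 arrays. The 3 arrays of highest mitosis score are among the 8, so leaving them out also removes the highest values of the genes compared. Smaller errors and more calls can follow from that choice alone.

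**Figure D1:**
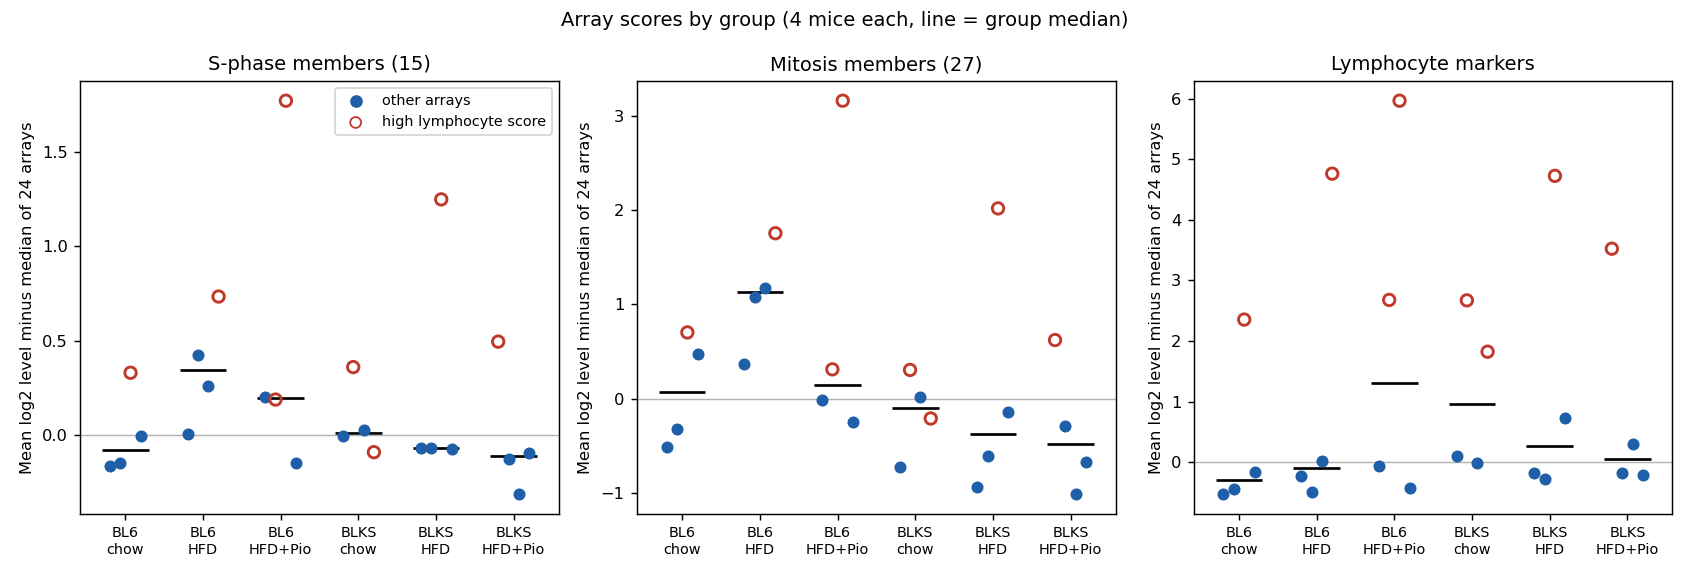
Mean relative level of the S phase genes, the mitosis genes and the lymphocyte markers on each array (log2, minus the median of the 24 arrays), by group, with mice 1 to 4 from left to right, group medians as lines and the 8 arrays of high lymphocyte score as open red points. BL6 HFD with pioglitazone mouse 3 is the highest point in all 3 panels. In the mitosis panel the BL6 HFD mice lie between 0.37 and 1.76 and overlap the BL6 chow mice, between -0.51 and 0.70.

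**Figure D2:**
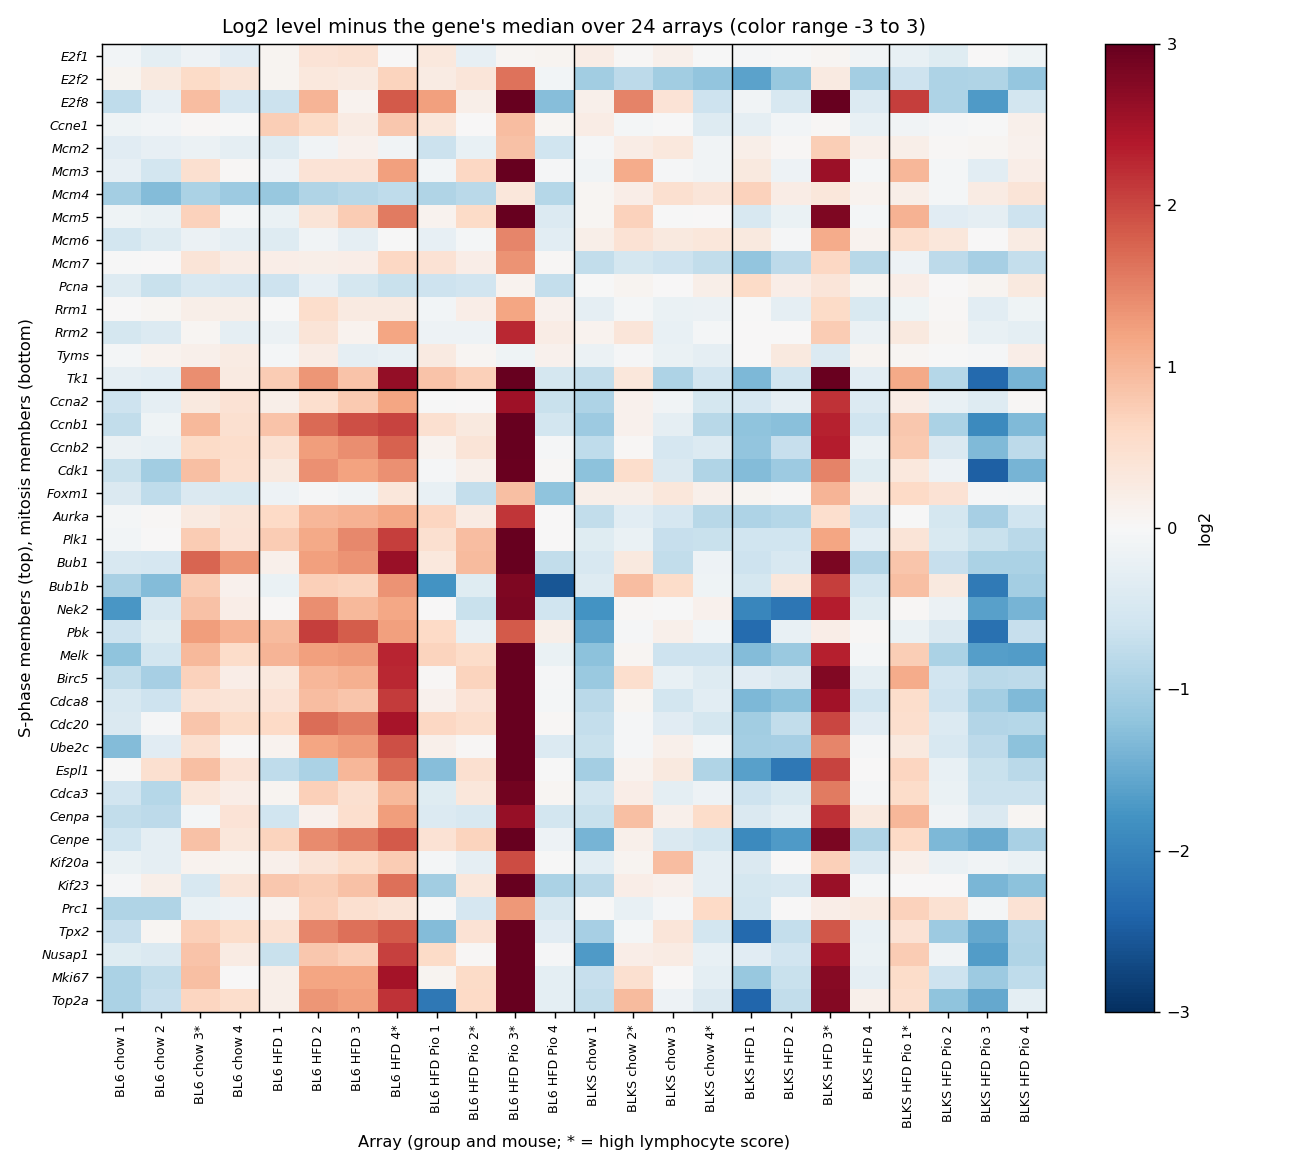
Relative level of each kept gene on each array as a log2 difference from the gene's own median over 24 arrays, on a colour scale from -3 to 3, with arrays of high lymphocyte score marked by an asterisk. The 3 arrays with the highest values across the mitosis genes, BL6 HFD with pioglitazone mouse 3, BLKS HFD mouse 3 and BL6 HFD mouse 4, carry the asterisk.

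The comparison of HFD with chow asks whether feeding was accompanied by a proliferation signature in each strain. In BL6 islets the mitosis genes lay higher on HFD as a class, with a median difference of 1.09 log2 units and 26 of 27 kept genes above 0, while the S phase genes had a median of 0.17 with 14 of 15 above 0. The median of all genes was -0.001, and 49.7% of them were above 0. The same medians over the probes well above background on all 24 arrays were 1.0 and 0.16. Mitosis genes moved together between mice, so the count of genes above 0 is not one of independent observations. Mouse by mouse the mitosis scores overlapped, at -0.51 to 0.70 on chow and 0.37 to 1.76 on HFD. After limma with Benjamini-Hochberg adjustment over 22967 genes, 0 of the 42 passed the threshold, where 0.0435% of all genes did. At an unadjusted p under 0.05 there were 5, all higher on HFD, against 5.47% of all genes.

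Among the S phase regulators, cyclin E1 (Ccne1), the partner of CDK2 at the entry into S phase, had the smallest p. Its relative levels were 0.28, 0.33, 0.44 and 0.39 in the BL6 chow mice and 1.14, 0.97, 0.65 and 1.21 in the BL6 HFD mice. Every HFD mouse lay above every chow mouse, with a difference of 0.63 ± 0.17 (SE, n = 4 and 4; 1.55-fold; limma adjusted p = 0.29). The probe lies on mm9 at chr7:38882937-38882960 on the minus strand, and another kept Ccne1 probe differed by 0.81. The transcription factor E2f1, which activates replication genes, read -0.03, -0.24, -0.10 and -0.29 on chow against 0.12, 0.46, 0.51 and 0.05 on HFD. These groups did not overlap either, and the difference was 0.45 ± 0.12 (1.37-fold, limma adjusted p = 0.305). Several replication genes had differences smaller than their SE: E2f2 differed by 0.01 ± 0.33, the helicase subunits Mcm2 and Mcm5 by 0.15 ± 0.24 and 0.55 ± 0.69, and the sliding clamp Pcna by 0.01 ± 0.14. In nucleotide supply, the ribonucleotide reductase subunit Rrm2 differed by 0.66 ± 0.40 and thymidine kinase Tk1 by 1.12 ± 0.94. Thymidylate synthase (Tyms), at -0.20 ± 0.13, was the 1 kept S phase gene that lay lower on HFD.

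Among the mitosis genes, Prc1, which bundles the microtubules of the central spindle, had the smallest p. Its relative levels were -1.31, -1.32, -0.60 and -0.57 on chow and -0.30, 0.28, 0.07 and -0.03 on HFD. The groups did not overlap, and the difference was 0.96 ± 0.32 (1.94-fold, limma adjusted p = 0.542; probe on mm9 at chr7:87461048-87461107, plus strand). The proliferation marker Mki67, a coat protein of mitotic chromosomes, read -1.81, -1.61, 0.04 and -0.87 on chow and -0.70, 0.31, 0.32 and 1.63 on HFD. Chow mouse 3, an array of high lymphocyte score, lay among the HFD mice, and the difference was 1.45 ± 0.82 (2.74-fold, limma adjusted p = 0.97). The mitotic kinase Plk1 read -2.05, -1.97, -1.22 and -1.56 on chow and -1.22, -0.83, -0.53 and 0.11 on HFD. All 4 HFD mice lay above every chow mouse, mouse 1 by less than rounding shows, with a difference of 1.09 ± 0.57 (limma adjusted p = 0.952).

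The remaining mitosis genes lay in the same direction with wide errors. Cyclin B1 (Ccnb1) differed by 1.47 ± 0.81, its kinase Cdk1 by 1.14 ± 0.73, cyclin A2 (Ccna2) by 0.70 ± 0.58 and the transcription factor Foxm1 by 0.53 ± 0.31. The anaphase activator Cdc20 differed by 1.34 ± 0.69, the ubiquitin-conjugating enzyme of the anaphase-promoting complex Ube2c by 1.41 ± 0.65 and the passenger protein Birc5 by 1.37 ± 0.81. DNA topoisomerase Top2a differed by 1.34 ± 1.03, and the Aurora A kinase Aurka by 0.79 ± 0.36. Separase (Espl1), at -0.20, was the 1 kept mitosis gene that lay lower. Of the 42 genes 9 had every HFD mouse above every chow mouse (E2f1, Ccne1, Foxm1, Aurka, Plk1, Melk, Kif20a, Kif23 and Prc1), against 2.64% of all genes, and 0 had the reverse. Kif23, a motor of the central spindle, was well above background on 0 chow and 3 HFD arrays. Its mean HFD level lay at least 1.51-fold above the detection limit of the chow arrays, a figure without an error. The Kif23 difference was 1.01 (limma adjusted p = 0.974).

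Without the 8 arrays of high lymphocyte score, 3 BL6 chow and 3 BL6 HFD mice were left, and the differences were of much the same size with smaller errors. The medians were 0.18 for S phase and 1.09 for mitosis, and 56.7% of all genes lay above 0. Mitosis scores still overlapped, at -0.51 to 0.47 on chow and 0.37 to 1.17 on HFD. limma called 0 of 42 after adjustment (0% of all genes), with 22 at an unadjusted p under 0.05 (5 of S phase, 17 of mitosis) against 7.07% of all genes. Groups did not overlap in 18 genes, all higher on HFD, against 10.5% of all genes. Plk1 differed by 1.0 ± 0.20 (limma adjusted p = 0.26), Ccnb1 by 1.62 ± 0.41 (0.351), Mki67 by 1.41 ± 0.34 (0.345) and Ccne1 by 0.59 ± 0.13 (0.284). Other cell markers moved between the same groups in all mice. Macrophage scores did not overlap, at -0.13 to -0.01 on chow and 0.34 to 0.77 on HFD, with 16 of 18 markers higher, a median of 0.64 and 0 called. Lymphocyte markers were higher for 17 of 19 that were kept (median 0.65, 0 called) and acinar markers for 19 of 19 (median 1.92, 0 called). With the macrophage score as a covariate the mitosis median became -0.18; the part of these cells in the difference was not tested further. All BL6 chow and HFD arrays lay on 1 slide.

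In BLKS islets the mitosis median for HFD against chow was 0.21, with 20 of 27 genes above 0, and the S phase median was 0.14, near that of BL6, with 13 of 15 above 0 (46% of all genes). limma called 0 of 42 (0.0784% of all genes), 0 had an unadjusted p under 0.05 (9.18% of all genes) and 0 had groups that did not overlap (2.26% of all genes higher, 3.55% lower). Ccne1 read 0.62, 0.35, 0.40 and 0.01 on chow and 0.13, 0.33, 0.44 and 0.19 on HFD, a difference of -0.08 ± 0.17. Mki67 read -1.55, -0.38, -0.87 and -1.17 on chow and -2.01, -1.54, 1.86 and -1.13 on HFD. Of the HFD mice, mouse 3 alone lay above the chow range, and the difference was 0.29 ± 0.82. Prc1 and E2f1 differed by -0.10 ± 0.32 and -0.12 ± 0.12. Leaving out 1 mouse at a time moved the mitosis median between -0.38 and 0.62. With the high-lymphocyte arrays left out it was -0.17, with 7 of 27 genes above 0 (46.3% of all genes), and the S phase median was -0.03, with limma calling 0 of 42 (0.00871% of all genes).

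The difference between the strains in the HFD effect was tested as an interaction, and it did not pass the threshold for any of the 42 genes (limma, 0% of all genes). The BLKS effect minus the BL6 effect had a median of -0.88 for mitosis genes, 25 of 27 being below 0 (47.5% of all genes were above 0), and of -0.09 for S phase genes, 11 of 15 being below 0. At an unadjusted p under 0.05 there were 3, against 8.42% of all genes: E2f1 (-0.57 ± 0.17, limma adjusted p = 0.293), Ccne1 (-0.71 ± 0.24, 0.371) and Prc1 (-1.05 ± 0.45, 0.519). Without the 8 arrays 17 of 42 had an unadjusted p under 0.05 against 9.64% of all genes, the mitosis median was -1.16 with 27 of 27 genes below 0 (44.1% of all genes were above 0), and 0 were called (0.00435% of all genes). Other cell markers lay the same way in this interaction over all mice, with 18 of 18 macrophage markers below 0 (median -0.57) and 16 of 19 lymphocyte markers below 0 (median -0.51), 0 called in either list. With the macrophage score as a covariate the mitosis median became 0.52. Fewer arrays per group entered the fit without the 8 arrays, and BLKS chow and HFD arrays lay on different slides.

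**Figure D3:**
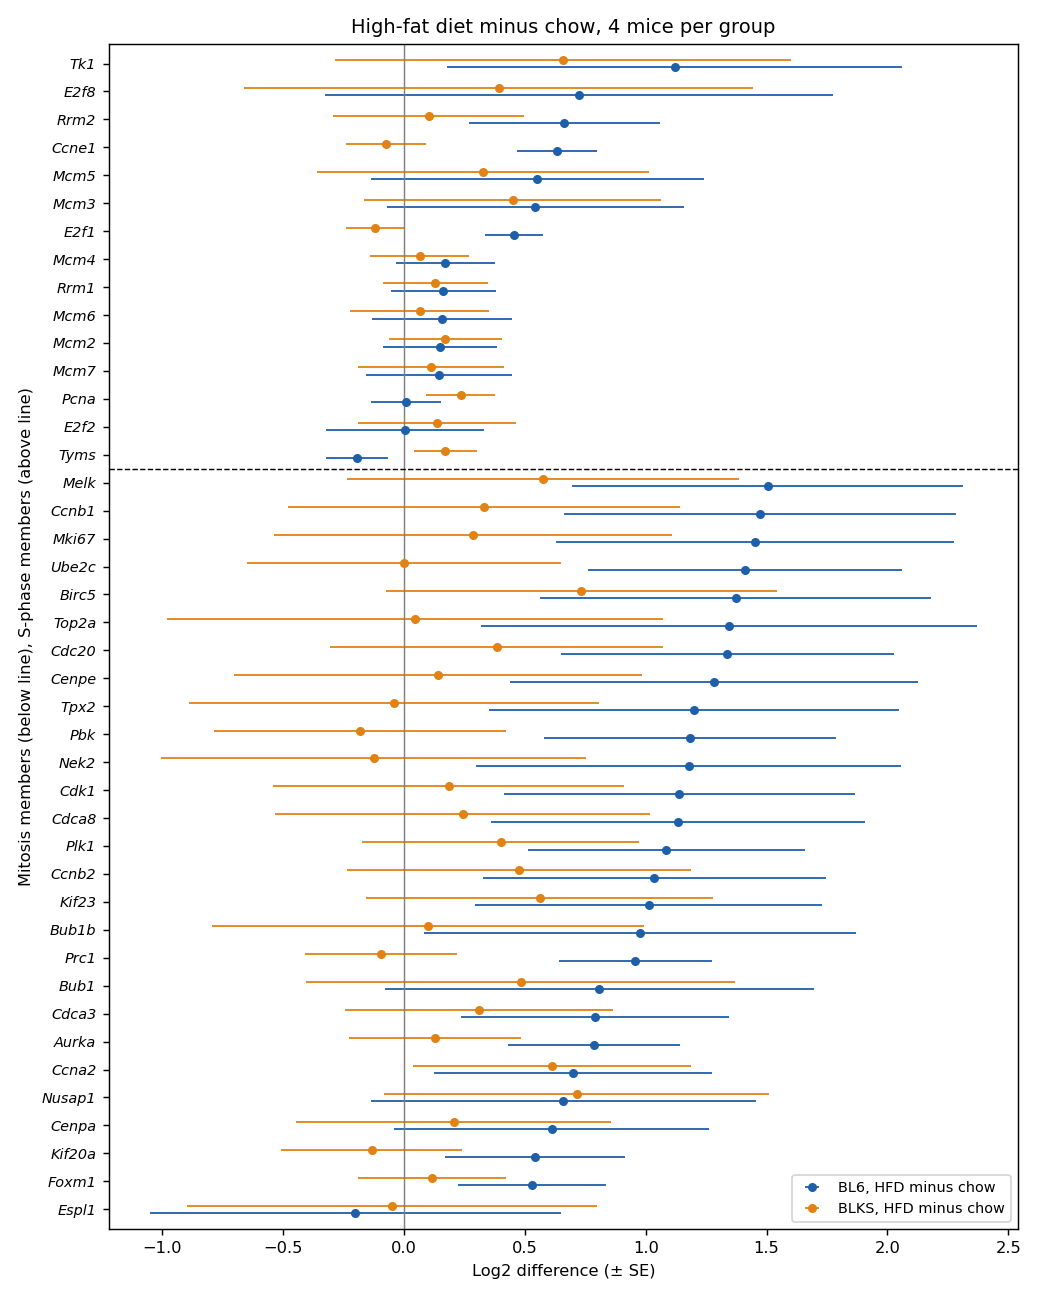
Log2 difference between HFD and chow for each kept gene in BL6 (blue) and BLKS (orange), with SE from limma and 4 mice per group, S phase genes above the dashed line and mitosis genes below it. BL6 points lie right of 0 for 26 of 27 mitosis and 14 of 15 S phase genes, and 0 of 42 differences passed the threshold in either strain.

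Pioglitazone was compared with HFD alone to ask whether the drug altered the proliferation genes of HFD-fed mice. In BL6 the mitosis genes had a median of -0.27, with 23 of 27 below 0 (49.5% of all genes were above 0), and the S phase genes a median of 0.17. limma called 0 of 42 (0.192% of all genes), with 0 at an unadjusted p under 0.05 (10.4% of all genes) and 0 with groups that did not overlap (1.74% of all genes higher, 1.54% lower). The value depended on mouse 3: Ccnb1 read -2.45, -2.64, 0.69 and -3.49 in the 4 pioglitazone mice against -2.08, -1.24, -1.0 and -0.91 on HFD alone. Mice 1, 2 and 4 lay below every HFD mouse and mouse 3 above every one. Leaving out 1 mouse at a time moved the mitosis median between -1.06, without mouse 3, and 0.08. Lymphocyte markers were higher with pioglitazone for 18 of 19 (median 0.94) and macrophage markers for 15 of 18 (median 0.36), 0 called in either list.

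With the high-lymphocyte arrays left out, 2 BL6 pioglitazone mice were set against 3 on HFD. All 27 kept mitosis genes then had lower means with pioglitazone, where 55.6% of all genes lay above 0, with a median of -0.95, and the S phase median was -0.19. limma still called 0 of 42 (0.0261% of all genes), with 18 at an unadjusted p under 0.05 against 11.1% of all genes. Groups did not overlap in 22 genes that were lower (2 of S phase, 20 of mitosis), against 9.23% of all genes. Plk1 differed by -0.88 ± 0.22 (limma adjusted p = 0.268), Ccnb1 by -1.53 ± 0.46 (0.313), Top2a by -2.13 ± 0.75 (0.386) and Mki67 by -0.96 ± 0.38 (0.413). The BL6 HFD and pioglitazone arrays lay on different slides, and slide and treatment cannot be told apart there.

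In BLKS, whose HFD and pioglitazone arrays shared a slide, the medians were -0.41 for mitosis and -0.15 for S phase. limma called 0 of 42 (0.00435% of all genes), with 0 at an unadjusted p under 0.05 (4.17%). Once the high-lymphocyte arrays were dropped the medians were -0.12 and -0.09. The interaction of strain and drug called 0 genes (0.00871% of all genes), with 0 at an unadjusted p under 0.05 (7.44%). Its mitosis median was -0.14 over all mice and 0.84 without the high-lymphocyte arrays. Against chow, pioglitazone with HFD gave medians of 0.38 for S phase and 0.67 for mitosis in BL6, with 0 called (0.283%). Without pioglitazone mouse 3 these medians were 0.08 and -0.03, without the high-lymphocyte arrays 0.17 and 0.22, and with the macrophage score as a covariate -0.49 and -1.35. Lymphocyte markers were higher for 19 of 19 (median 1.89, 0 called) and macrophage markers for 17 of 18 (median 0.95, 1 called). At an unadjusted p under 0.05 there were 4 of 42, a smaller share than the 15.6% of all genes: E2f1, Ccne1, Mcm4 and Rrm2, all of S phase. Mcm4, at 0.53 ± 0.20 (limma adjusted p = 0.207), was the 1 gene of the 42 whose groups did not overlap (3.76% of all genes higher). In BLKS the medians were -0.01 and -0.19, with 0 called (0.0348%) and 1 at an unadjusted p under 0.05 (7.23%).

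The strain comparison, BLKS minus BL6 on each diet, was where members passed the threshold. On chow limma called 5 of 42, a share of 11.9% against 41.6% of all genes, and all 5 were S phase genes (33.3% of the 15 kept). On HFD it called 8 against 49.9% of all genes, and on HFD with pioglitazone 7 against 45.8%. The members' shares were thus below that of all genes on every diet. Mcm4, Pcna, E2f2 and Mcm7 were called on all 3 diets. The strains lay on different slides apart from 2 that held BL6 pioglitazone and BLKS chow mice, so slide and strain cannot be told apart on a shared diet.

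The helicase subunit Mcm4 was higher in BLKS. Its relative levels on chow were 1.21, 0.93, 1.27 and 1.13 in BL6 and 2.28, 2.41, 2.70 and 2.59 in BLKS. The groups were far apart, and the difference was 1.36 ± 0.20 (2.57-fold, limma adjusted p = 1.64e-05; probe on mm9 at chr16:15624372-15624431, minus strand). It was 1.25 ± 0.20 on HFD and 0.74 ± 0.20 with pioglitazone, where BL6 mouse 3, at 2.55, lay within the BLKS range of 2.16 to 2.60. Pcna read 3.22, 2.94, 3.13 and 3.1 in BL6 and 3.61, 3.70, 3.62 and 3.79 in BLKS on chow. The groups did not overlap, with a difference of 0.58 ± 0.14 (1.5-fold, limma adjusted p = 0.00269), and the difference was 0.81 ± 0.14 on HFD and 0.60 ± 0.14 with pioglitazone.

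Other S phase genes lay the opposite way. The transcription factor E2f2 read 0.54, 0.75, 1.05 and 0.85 in BL6 on chow and -0.58, -0.32, -0.57 and -0.72 in BLKS. It was lower in every BLKS mouse, with a difference of -1.34 ± 0.33 (2.54-fold lower, limma adjusted p = 0.00225). The difference was -1.21 ± 0.33 on HFD, where BLKS mouse 3 (0.73) lay within the BL6 range, and -1.44 ± 0.33 with pioglitazone. Mcm7, another subunit of the same helicase, read 1.34, 1.35, 1.74 and 1.56 in BL6 on chow and 0.61, 0.81, 0.73 and 0.60 in BLKS. The groups did not overlap, and the difference was -0.81 ± 0.30 (limma adjusted p = 0.0374), then -0.84 ± 0.30 on HFD and -1.17 ± 0.30 with pioglitazone. Mcm7 kept its call on chow in 1 of 8 fits that each left out 1 of the compared mice, whereas Mcm4, Pcna and E2f2 kept theirs in 8 of 8 on every diet. E2f1 was higher in BLKS on chow, by 0.31 ± 0.12 (limma adjusted p = 0.0421), a call kept in 3 of 8 such fits. On the 1 slide that held 3 mice of each strain, the 3 BLKS chow mice were below the 3 BL6 pioglitazone mice by 1.75 for E2f2 and 1.34 for Mcm7 with no overlap. There Mcm4 was higher by 0.67 and Pcna by 0.45 with overlap, on unlike diets.

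On HFD the strains also differed in Ccne1 and in 3 mitotic kinases. Ccne1 was lower in BLKS, with a difference of -0.72 ± 0.17 (1.65-fold lower, limma adjusted p = 0.00121), with every BLKS mouse (0.13 to 0.44) below every BL6 mouse (0.65 to 1.21). Aurka, which builds the spindle poles, read -0.57, -0.18, -0.13 and 0.00 in BL6 and -2.08, -2.01, -0.65 and -1.78 in BLKS. It was lower in every BLKS mouse, with a difference of -1.41 ± 0.36 (2.66-fold lower, limma adjusted p = 0.00266). Plk1 read -2.56, -2.56, -0.79 and -2.28 in BLKS, where mouse 3 lay among the BL6 values, and the difference was -1.43 ± 0.57 (limma adjusted p = 0.044), a call kept in 2 of 8 fits without 1 mouse. Pbk, a mitotic kinase, read -2.09, -0.96, -1.21 and -1.8 in BL6 and -5.34, -3.26, -2.83 and -2.99 in BLKS. The groups did not overlap, with a difference of -2.09 ± 0.60 (4.26-fold lower, limma adjusted p = 0.00688). In BLKS mouse 1 Pbk was not well above background, so the fold includes a value near the floor. With pioglitazone Aurka and Plk1 were again lower in BLKS, with differences of -1.30 ± 0.36 (limma adjusted p = 0.00533) and -1.68 ± 0.57 (0.0216). The kinase Melk was called too (limma adjusted p = 0.043), with 0 BLKS arrays and 1 BL6 array, that of mouse 3 (-1.49), well above background. The other BL6 mice read -4.55, -4.67 and -5.41. The BL6 mean lay 1.52-fold above the BLKS detection limit through mouse 3, so no fold can be given for the other mice. The Melk call was kept in 3 of 8 fits without 1 mouse and lost without BL6 mouse 3 (limma adjusted p = 0.185), and that of Plk1 with pioglitazone was kept in 5 of 8. With the macrophage score as a covariate E2f2, Mcm7, Pbk and Plk1 lost their calls on HFD, and E2f2, Mcm7, Aurka, Plk1 and Melk lost theirs with pioglitazone.

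**Figure D4:**
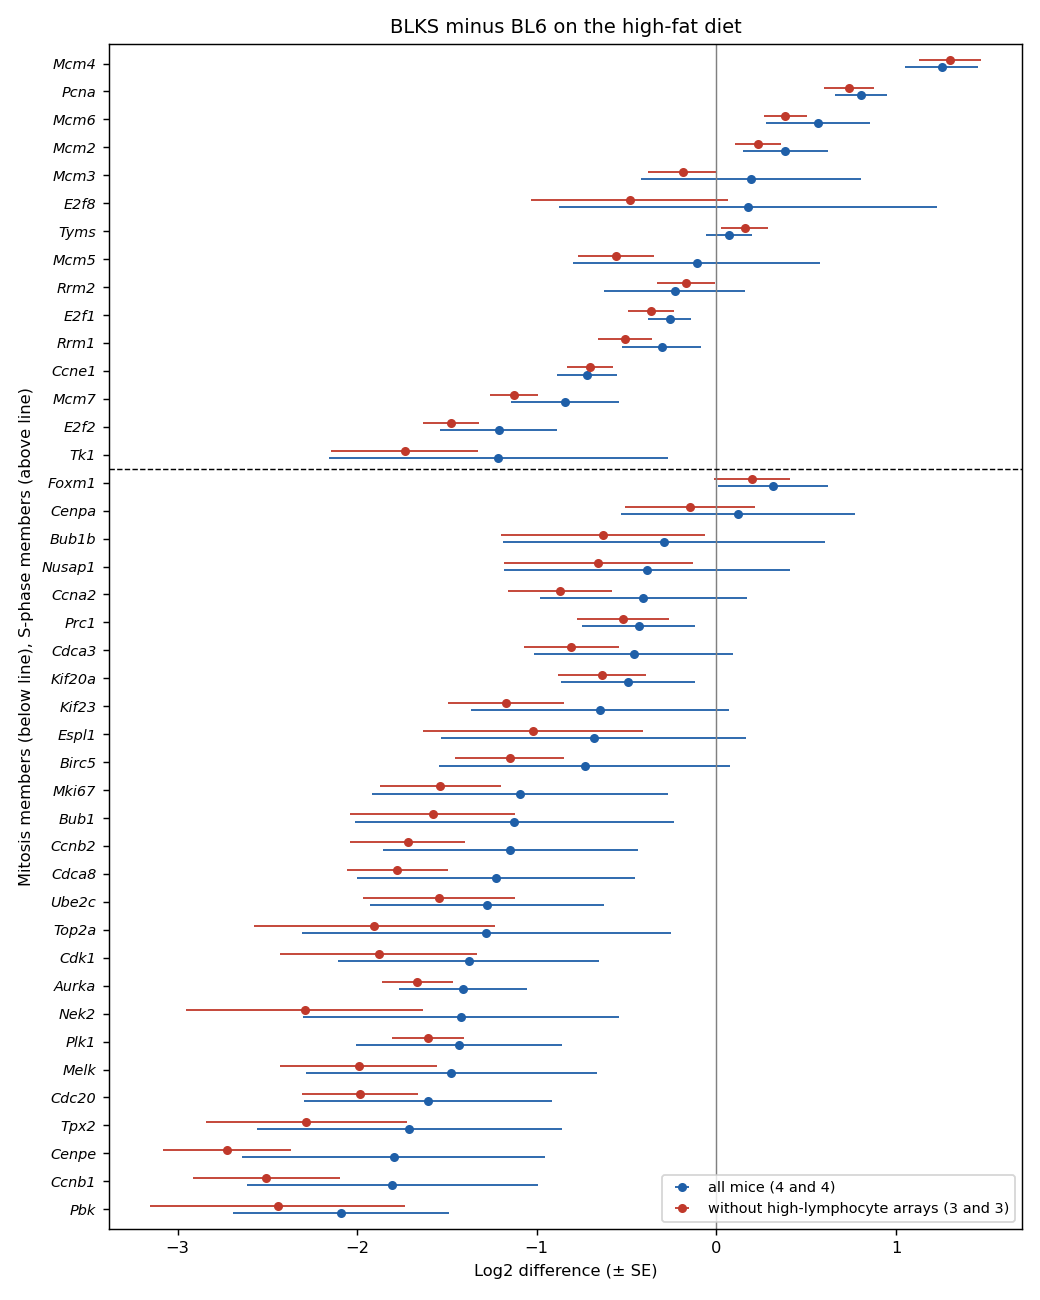
Log2 difference between BLKS and BL6 on HFD for each kept gene, with SE from limma, over all mice (blue, 4 per group) and without the arrays of high lymphocyte score (red, 3 per group). Without those arrays the mitosis genes called all lie left of 0 with shorter error bars, while Mcm4, Pcna and Mcm6 lie to the right.

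Mitosis genes as a class had a median strain difference of -0.34 on chow, -1.15 on HFD and -1.39 with pioglitazone, against 0.29, -0.11 and -0.49 for S phase. Leaving out 1 mouse at a time moved the mitosis medians from -0.59 to -0.13, from -1.85 to -0.73 and from -1.71 to -0.49, and the S phase median on chow from -0.01 to 0.35. The highest of these mitosis medians came without BLKS chow mouse 1, BLKS HFD mouse 1 and BL6 pioglitazone mouse 3. With the high-lymphocyte arrays left out, limma called 30 of 42 on HFD (71.4%, against 46.1% of all genes): 20 of 27 mitosis genes, all lower in BLKS (24.5% of all genes), and 10 of 15 S phase genes, of which 3 were higher and 7 lower. The mitosis median was then -1.58 on HFD, -0.42 on chow and -0.72 with pioglitazone, where 8 of 27 lay above 0. Cdc20 read -1.12, -0.03 and -0.17 in the 3 BL6 mice left and -2.76, -2.46 and -2.06 in the 3 BLKS mice. The groups were well apart, and Cdc20 differed by -1.99 ± 0.32 (3.96-fold lower, limma adjusted p = 0.000341). Ccnb1 differed by -2.51 ± 0.41 (5.68-fold lower, limma adjusted p = 0.000352), the kinetochore motor Cenpe by -2.73 ± 0.36 (6.62-fold lower, 6.51e-05), Mki67 by -1.54 ± 0.34 (2.90-fold lower, 0.00265) and Tk1 by -1.74 ± 0.41 (3.33-fold lower, 0.00439). In BLKS HFD mouse 1 Cenpe (-4.47) and Tk1 (-4.99) were not well above background, so their folds include a value near the floor. Foxm1, at 0.20 ± 0.21, and Prc1, at -0.52 ± 0.26, did not pass the threshold. Leaving out BLKS HFD mouse 3 alone, the BLKS HFD mouse of highest mitosis score, gave 20 of 42 called. The share of all genes called without that mouse is not given, and with all mice it was 49.9%, so the 20 cannot be read as an excess. The high-lymphocyte arrays include mouse 3, so the 30 calls follow a choice of arrays that also removed high values of the same genes. Without the high-lymphocyte arrays 10 were called on chow (23.8%, against 33.2% of all genes) and 15 with pioglitazone (35.7%, against 43.6%). Macrophage markers differed between the strains too: 10 of 18 were lower in BLKS on HFD and 1 higher, and 5 of 11 beta-cell markers were lower, where 26.7% of all genes were called lower and 23.3% higher. On every diet 18 macrophage markers were well above background on each BL6 array and 16 on each BLKS array. Macrophage scores of the strains overlapped on chow, at -0.13 to -0.01 in BL6 and -0.48 to 0.12 in BLKS. On HFD they did not, at 0.34 to 0.77 and -0.39 to 0.21, and with pioglitazone they were 0.40 to 1.79 and -0.35 to 0.45. Why fewer macrophage markers were detected in BLKS was not tested. With the macrophage score as a covariate the mitosis median on HFD became 0.42; the part of the beta-cell markers was not tested.

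Other cell cycle lists were set beside these genes. Of the cyclin-dependent kinase inhibitors, Cdkn2c (p18, which holds back CDK4 and CDK6) was called in BL6 on HFD. It read -0.74, -0.85, -0.55 and -0.64 on chow, -0.08, 0.06, 0.04 and 0.04 on HFD and -0.21, -0.41, -0.19 and -0.29 with pioglitazone. Every HFD mouse lay above all mice of the other BL6 groups, and Cdkn2c rose by 0.71 ± 0.10 on HFD against chow (limma adjusted p = 0.00581). The call was lost without the arrays of high lymphocyte score, where 0% of all genes were called. The inhibitor list had 7 of 8 genes above 0 in BL6 (median 0.45, 1 called, against 0.0435% of all genes) and 0 of 8 in BLKS (median -0.26, 0 called, against 0.0784%), for HFD against chow. Cdkn1a (p21), which stops CDK2 and binds PCNA, differed by 0.65 ± 0.17 in BL6 on HFD (limma adjusted p = 0.286). It was higher in BLKS on chow, HFD and pioglitazone, by 2.61, 1.69 and 2.49 (limma adjusted p = 1.69e-10, 8.21e-08 and 3.63e-10). Of 26 further mitosis genes 25 lay above 0 in BL6 on HFD against chow with a median of 0.47, and of 19 further replication genes 14 did with a median of 0.22; 0 of either list were called. Between the strains on HFD, 5 of the 26 mitosis genes were lower in BLKS and 2 higher, and 3 of the 19 replication genes were lower and 4 higher, shares below the 26.7% and 23.3% of all genes.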

How the data were processed

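Per the labels' protocols, total RNA of isolated islets was amplified and labelled with Cy3, 1 mouse per array, so replicates are separate mice. Per the file headers, the authors' scanner files hold processed intensity from Agilent Feature Extraction 10.7.3.1, already background-subtracted but not normalized between arrays. The values the authors deposited for the series are a linear ratio, which matched each array's processed intensity over its median (largest relative difference 5.81e-06), and it was used as an alternative; 0 columns of values were left unmapped.

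The deposited intensity was put on the log2 scale minus each array's 75th percentile, after outlier spots were dropped (56 probes; 0 spots saturated). Per array 50.2% to 59.3% of spots were well above background, and the number of arrays limits the precision. A probe was kept when well above background on at least 4 of 24 arrays (32749 probes), and the brightest kept probe stood for each of 22967 genes. Of the 42 kept members 8 had several kept probes, of which all 8 had 1 sign in BL6 for HFD minus chow and 4 of 8 in BLKS. Group means were fitted to all 24 arrays with limma 3.58.1 (R 4.3.3, data.table version 1.17.8) and tested in 11 contrasts, with Benjamini-Hochberg adjustment over all genes at a threshold of 0.05. The script was tested on simulated data. "At least" folds compare the brighter group's mean, dim arrays included, with the array's lowest signal well above background, and carry no error. Genes carry the names in the array's annotation, and probe coordinates are on mm9. The members and lists were chosen with earlier results of these data known.

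The text names, for each contrast, members past the threshold (the 10 of smallest p if more), the 3 of smallest p and a set of always-named genes, and from the lists the genes past the threshold (the 5 of smallest p if more). Ube2c, Espl1, Kif20a, Kif23, Cenpe and Mcm6 were named after their values were seen. Of the always-named genes Aurkb and Cdc6 were too dim to test. Comparisons that use the same group share its mice. Mouse numbers come from the titles, of different animals. The deviations of same-numbered mice correlated above 0.1 in every pair only for HFD with pioglitazone minus chow in BL6 (0.188, 0.346, 0.487 and 0.137). Alternatives were other normalizations, filters, probe rules, blocks by slide or mouse number, marker scores as covariates, and mice left out. The differences within 1 slide were added after seeing the data.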

Additional observations from a re-analysis of the deposited data

Results flagged for a closer look

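Of 162 groups of 4 mice examined, 22 had 1 mouse that stood apart from the other 3 by Dixon's criterion, which chance alone meets in about 1 group in 20. Values are relative levels (log2). In BLKS HFD, mouse 3 stood above the others for Ccna2 (0.12), Foxm1 (-1.42), Plk1 (-0.79), Birc5 (1.63), Mcm5 (1.46), Kif23 (-2.31) and the mean of the S phase genes (0.96). In BL6 HFD with pioglitazone, mouse 3 stood above the others for Cdk1 (-0.87), Cdc20 (2.09), Pcna (3.71), Rrm2 (2.30), Mcm4 (2.55) and the mean of the mitosis genes (0.16). Mouse 4 of BL6 HFD was high for Kif23 (-3.24) and Mcm7 (1.96), mouse 1 of BLKS HFD with pioglitazone for Birc5 (-0.05), and mouse 3 of BL6 chow (-0.64) and mouse 2 of BLKS chow (-0.65) for Mcm5. These 6 mice are all among the 8 with a high lymphocyte score, and the part of lymphocytes in the values was not tested further. In the remaining sets a mouse stood below the others: mouse 1 of BL6 HFD for Cdk1 (-3.54), mouse 2 of BL6 chow for Foxm1 (-3.20), and mouse 1 of BLKS chow (-4.59) and mouse 1 of BLKS HFD (-5.34) for Pbk. These mice were not among the 8.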

How the results depend on the processing

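The counts of 0 members called within a strain and in the interactions were the same under every alternative run. The spread between mice, taken as the pooled SD of the array means within groups, was 0.50 for S phase and 0.97 for mitosis. Signs could turn within that wide spread. Without the high-lymphocyte arrays the BLKS mitosis median for HFD minus chow went from 0.21 to -0.17. For the strain difference of the pioglitazone effect it went from -0.14 to 0.84. Medians of a phase stayed within the spread except with the macrophage score as a covariate, which differs between the groups compared. With it the mitosis median was -0.18 for HFD minus chow in BL6, and for HFD with pioglitazone minus chow in BL6 the S phase and mitosis medians were -0.49 and -1.35. For BLKS minus BL6 they were 0.81 and 0.42 on HFD and 0.88 and 0.96 with pioglitazone, and for the strain difference of the HFD effect 0.41 and 0.52. The same covariate turned the sign on HFD of Mcm5 (1.41) and Rrm2 (0.65), and with pioglitazone of Plk1 (0.33), Melk (0.56), Top2a (2.12), Mcm5 (1.39) and Rrm2 (0.75), and gave 10, 13 and 13 members called between the strains on chow, HFD and pioglitazone, of which 6, 11 and 13 were higher in BLKS, against 3, 2 and 2 in the reported fit. The lymphocyte score as a covariate gave 13, 23 and 15, and without arrays of high lymphocyte score 10, 30 and 15. On chow the count was 3 with no filter on dim probes and 12 with only the groups compared in the fit; with pioglitazone it was 3 in that fit. Leaving out 1 mouse gave 3 to 5 on chow (3 without BL6 mouse 2, 3 or 4 or BLKS mouse 1 or 3), 6 to 20 on HFD (20 without BLKS mouse 3) and 5 to 13 with pioglitazone (11 without BL6 mouse 2 or 4, 13 without BLKS mouse 1). The cause of these shifts was not tested. A replicate block on mouse number gave 6, 9 and 9 members called between the strains against 5, 8 and 7, and 0 in the other comparisons; no pairing of animals stands behind the numbers. Slide as a random block gave 5, 8 and 9, and slide as a fixed block could not be fitted between the strains. Of all genes 41.6%, 49.9% and 45.8% were called between the strains on chow, HFD and pioglitazone in the reported fit. Without the high-lymphocyte arrays these shares were 33.2%, 46.1% and 43.6%. For the other alternatives the share of all genes is not given, so their counts cannot be read as above or below it. Of the values of single named genes, 4358 kept their direction and side of the threshold, 74 passed it only under the alternative, 53 passed it only in the reported fit, 335 moved and 7 turned.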
